A study of Mus musculus with 15 samples.

Results

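The 10 genes described here encode the salt carriers and channels of the distal nephron and the kinase pathway that controls them: Slc12a1, Slc12a3, Umod, Scnn1a, Scnn1b, Scnn1g, Wnk1, Wnk4, Stk39 and Klhl3. They were taken by gene symbol from a table of 24421 genes, in which all 10 were present, and all 10 were among the 16752 genes with enough counts to be tested. The kidneys came from wild-type mice on day 14, and no group carried a transgene or deletion. The groups were sham operation on normal diet (sham, n = 3), unilateral ureteral obstruction on the same normal diet (UUO, n = 6) and the operation with a Si-based agent in the feed (UUO_Si, n = 6). Tying off 1 ureter makes urine dam up in that kidney, which injures the tubule and leads to fibrosis. No sham group on the Si-based diet was among the samples. Strain, sex and age are not given in the labels, nor whether each library came from its own mouse, so p-values measure the spread between these samples.

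Salt that escapes the proximal tubule is taken back by a chain of apical carriers: the bumetanide-sensitive carrier NKCC2 in the thick ascending limb, the thiazide-sensitive carrier NCC in the distal convoluted tubule, and the amiloride-sensitive sodium channel ENaC from there to the collecting duct. WNK kinases phosphorylate the kinases SPAK and OSR1, which in turn phosphorylate and activate NKCC2 and NCC. KLHL3 brings WNK kinases to a ubiquitin ligase built on CUL3, and mutations in WNK1, WNK4, KLHL3 or CUL3 cause familial hyperkalaemic hypertension.

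The sham libraries were the shallowest, with total counts, in units of 1e+06, of 5.53 to 8.31, against 7.75 to 11.5 for the UUO_Si libraries and 11.2 to 15.4 for the UUO libraries. Levels are CPM, that is, a gene's counts scaled to a common library size after TMM normalization. Proximal tubule markers such as Lrp2 (megalin) and Slc34a1 summed to 16362 to 18514 CPM over 10 genes in sham, as the tissue label kidney implies, and to 515 to 1661 CPM in the obstructed libraries. Over the same libraries, 10 fibroblast markers went from 419 to 615 CPM in sham to 4927 to 10941 CPM after obstruction, and 10 leukocyte markers from 131 to 196 CPM to 872 to 1316 CPM. In UUO against sham all 10 proximal markers fell (median log2 fold change -4.66) and all 10 fibroblast markers rose (3.95), while 9 of 10 leukocyte markers rose (2.75) and, of 8 endothelial markers, 2 rose and 4 fell (-0.30). In bulk RNA, fewer cells of a type and less RNA per cell cannot be told apart, and the part of this change in tissue makeup in the results below was not tested. A sham library (replicate 3), a pair in UUO (replicates 5 and 6) and UUO_Si replicate 6 stood apart from the rest: of 1456 genes for odorant and pheromone receptors, which kidney hardly uses, these libraries had counts for 785 to 1258 and each of the others for 83 to 136. Values without these 4 libraries are given where they matter.

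Obstruction lowered all 10 genes. Each had an adjusted p under 0.05 in edgeR's quasi-likelihood test, where 26.4% of all tested genes were called lower and 53.9% were called in either direction. The median log2 fold change of the 10 was -1.38, against -0.04 over all tested genes. For each of the 10, the 6 UUO libraries lay below the 3 sham libraries, as they did for 22.3% of tested genes, with 24.6% above and 46.9% without overlap in either direction. The falls ranged from 9.40-fold for Slc12a3 to 1.25-fold for Stk39. The carriers Slc12a3 and Slc12a1, the ligase adaptor Klhl3 and the kinase Wnk4 fell by more than 4-fold, Scnn1a by 3.25-fold, and Umod, Scnn1b, Scnn1g, Wnk1 and Stk39 by less.

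**Figure D1:**
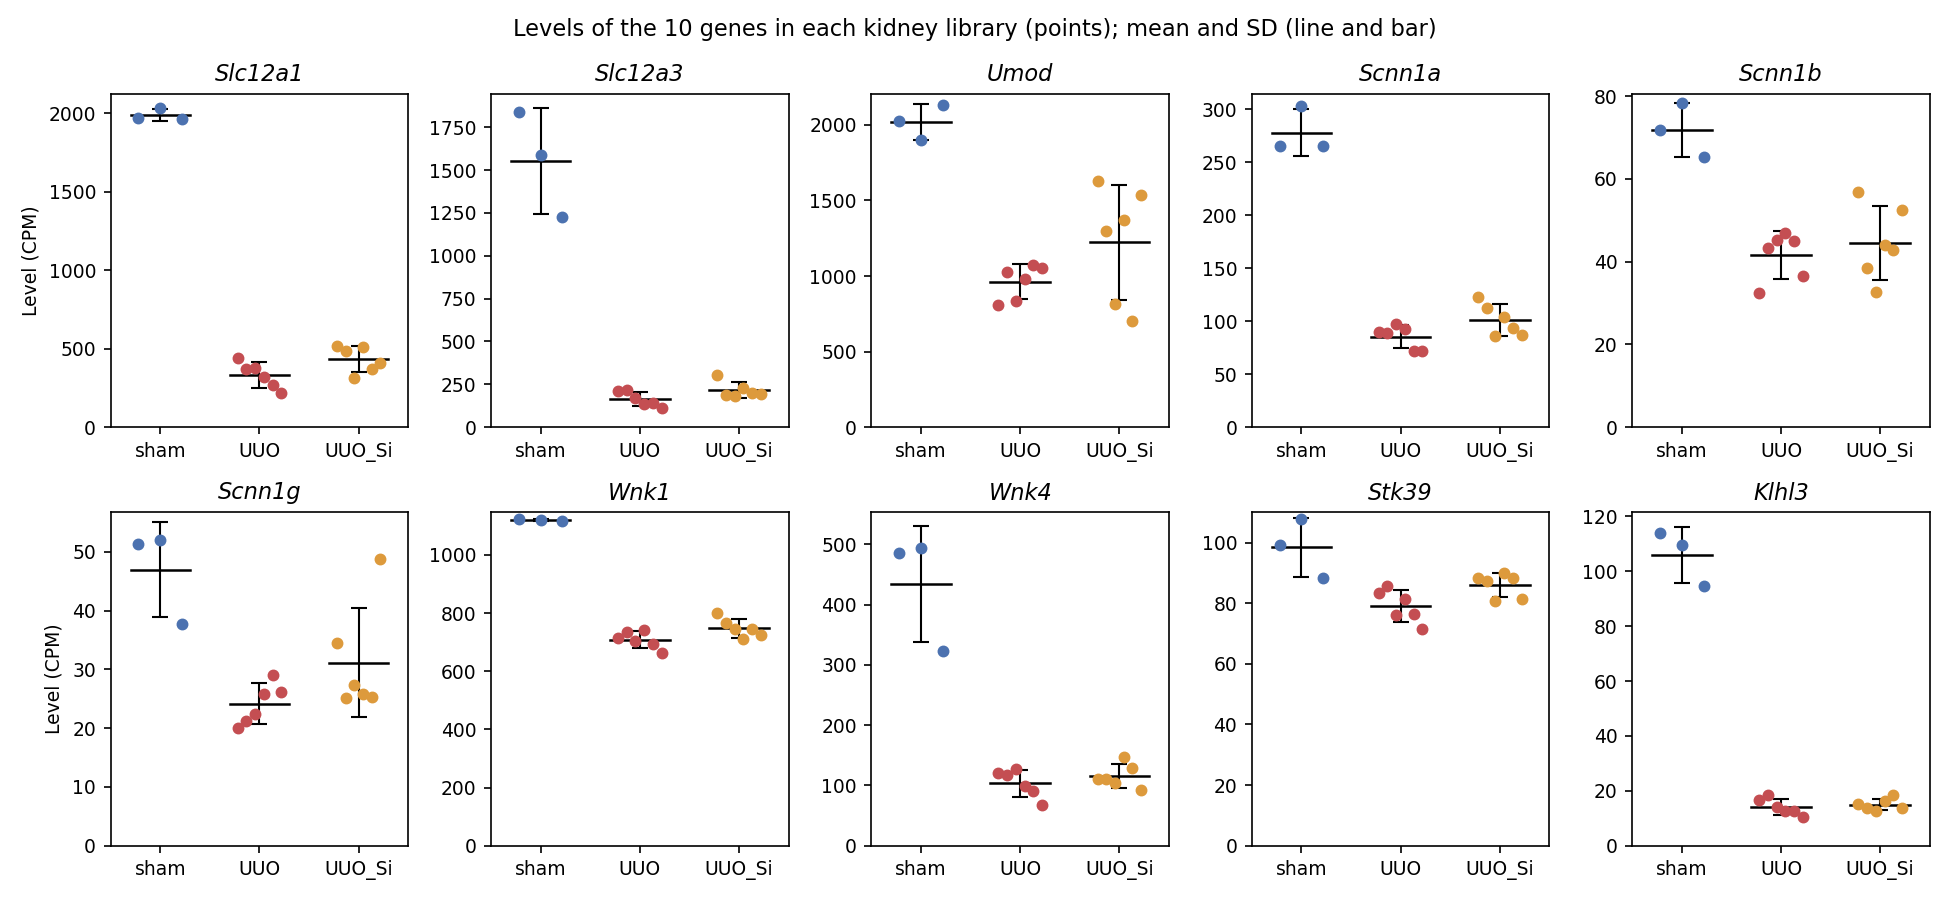
Level of each of the 10 genes (CPM, axis from 0) in every library of sham (n = 3), UUO (n = 6) and UUO_Si (n = 6), with points for libraries, a line for the mean and a bar for the SD. In every panel the UUO libraries lie below the sham libraries, while UUO and UUO_Si overlap.

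Slc12a1 encodes NKCC2, the carrier that takes up sodium, potassium and chloride in the thick ascending limb (GRCm38 chromosome 2, 125152505 to 125230002). Its level was 1971, 2036 and 1964 CPM in sham replicates 1, 2 and 3. In UUO it ran from 219 to 442 CPM with a median of 346, and in UUO_Si from 315 to 517 CPM with a median of 447. The sham libraries lay close together and far above both obstructed groups, which overlapped each other. The log2 fold change in UUO was -2.58 ± 0.18 (SE; adjusted p = 5.18e-09), leaving 16.7% of the sham level.

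Umod encodes uromodulin, the most abundant protein of normal urine, which is made in the same thick limb cells and is known to promote NKCC2 activity (chromosome 7, 119462711 to 119479282). Its level was 2028, 1898 and 2132 CPM in the 3 sham libraries, 809 to 1072 CPM (median 1005) in UUO and 704 to 1626 CPM (median 1332) in UUO_Si. All obstructed libraries lay below sham, but the UUO_Si libraries were spread widely, with a coefficient of variation of 31.1% against 11.8% in UUO. The fall in UUO was -1.07 ± 0.21 (adjusted p = 3.19e-04), leaving 47.7% of the sham level. Reads of Umod cannot be told apart from those of an annotated antisense gene, Gm44588, that shares 539 exon bases with it, because the strand setting of the counting is not given in the sources used here.

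Slc12a3 encodes NCC, the sodium and chloride carrier that defines the distal convoluted tubule (chromosome 8, 94329201 to 94366214). It was at 1839, 1588 and 1227 CPM in sham, at 113 to 219 CPM (median 158) in UUO and at 181 to 305.4 CPM (median 195) in UUO_Si. Sham replicate 3, a library that stood apart, was the lowest of its group, yet it lay far above every obstructed library. The log2 fold change in UUO was -3.23 ± 0.20 (adjusted p = 1.26e-09), which left 10.6% of the sham level, and it was -3.22 without the 4 libraries that stood apart.

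The sequences before the start of 4 members are shown because they set the 3 genes with the largest falls, Slc12a3, Klhl3 and Slc12a1, beside Umod, which is made in the same segment as Slc12a1 and fell less. They are read along the gene's strand of GRCm38 as RefSeq's promoter table gives it, 5′ to 3′, ending before the first annotated exon. Slc12a1 is from chr2:125152350-125152504 (plus), Umod from chr7:119479283-119479512 (minus), Slc12a3 from chr8:94328958-94329200 (plus) and Klhl3 from chr13:58113648-58113897 (minus). Capitals mark matches to the motifs named in the next paragraph, of which Klhl3 held none.
Slc12a1: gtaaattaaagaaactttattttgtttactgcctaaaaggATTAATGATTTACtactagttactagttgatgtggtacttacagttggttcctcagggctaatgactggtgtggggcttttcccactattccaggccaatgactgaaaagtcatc
Umod: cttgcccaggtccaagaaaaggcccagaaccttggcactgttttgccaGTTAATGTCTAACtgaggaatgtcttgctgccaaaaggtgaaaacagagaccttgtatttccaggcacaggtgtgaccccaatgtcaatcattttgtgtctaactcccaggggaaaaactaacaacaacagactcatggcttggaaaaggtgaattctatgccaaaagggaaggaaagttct
Slc12a3: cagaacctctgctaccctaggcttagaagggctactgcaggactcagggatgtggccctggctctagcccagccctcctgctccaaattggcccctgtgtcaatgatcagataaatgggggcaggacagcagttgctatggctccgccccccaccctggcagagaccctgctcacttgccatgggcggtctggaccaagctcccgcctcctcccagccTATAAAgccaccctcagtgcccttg
Klhl3: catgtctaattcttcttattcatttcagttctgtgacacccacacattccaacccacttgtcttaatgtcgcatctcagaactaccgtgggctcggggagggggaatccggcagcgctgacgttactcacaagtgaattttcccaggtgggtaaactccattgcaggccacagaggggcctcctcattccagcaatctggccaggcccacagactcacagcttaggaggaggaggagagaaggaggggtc

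Of the 10 genes, 9 had an entry in the promoter table, which does not list Scnn1a. Their 250 bases upstream of the RefSeq start were searched on both strands. Both thick limb genes held a match to the motif of HNF1, a homeobox factor of the tubule (GTTAAT, 1 base of any kind, then ATTAAC), with 2 mismatches allowed among its 12 fixed letters. The match lay 210 to 198 bases before the RefSeq start in Slc12a1 and 202 to 190 bases before it in Umod. Such a match was held by 1.25% of 32536 promoter windows. Both windows run into the first annotated exon, so the sequences above hold 155 of the 250 bases for Slc12a1 and 230 for Umod. The distance of the match to the annotated gene start is shorter by the rest, and differs more between the genes. Slc12a3 had a TATA box, TATAAA, 32 to 27 bases before its start, as did 12.3% of windows somewhere in their length. Scnn1b held the motif of the mineralocorticoid and glucocorticoid receptors (AGAACA, 3 bases of any kind, then TGTTCT), with 3 mismatches allowed among 12 fixed letters, which 12.3% of windows held. The motif of oestrogen-related receptors, AAGGTCA, was in none of the 9 windows and in 4.09% of all. The windows also differed in base composition. Against a median of 6 CpG dinucleotides over all windows, Umod had 0, Slc12a3 had 3, Slc12a1 had 4, Klhl3 had 6, Scnn1b had 7, Scnn1g had 16, Wnk4 had 17, Wnk1 had 26 and Stk39 had 43. The Stk39 window, 68471982 to 68472231 on chromosome 2, lay wholly within the annotated gene, so its count is not of sequence upstream of that gene. Matches and composition are descriptions of the sequence only.

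The 3 subunits of ENaC did not fall to the same extent. Scnn1a, the alpha subunit needed for the channel to reach the membrane (chromosome 6, 125320659 to 125344943), was at 266, 303.3 and 265 CPM in sham, 71.9 to 97.1 CPM (median 89.6) in UUO and 86.1 to 123 CPM (median 98.6) in UUO_Si. Its fall was -1.70 ± 0.12 (adjusted p = 5.84e-09), leaving 30.7% of the sham level. Scnn1b, the beta subunit (chromosome 7, 121865038 to 121918514), was at 71.9, 78.3 and 65.4 CPM in sham, 32.5 to 47.0 CPM (median 44.1) in UUO and 32.6 to 56.9 CPM (median 43.4) in UUO_Si. Its fall was -0.79 ± 0.15 (adjusted p = 3.27e-04), leaving 57.9%. The obstructed groups overlapped for both subunits, and neither group reached any sham library.

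Scnn1g, the gamma subunit, lies beside Scnn1b (chromosome 7, 121734479 to 121768475). It was at 51.3, 51.9 and 37.7 CPM in sham, 20.01 to 29.1 CPM (median 24.1) in UUO and 25.1 to 48.7 CPM (median 26.6) in UUO_Si. The lowest sham library was replicate 3, and the highest UUO_Si library, replicate 6, lay above it. Both were among the libraries that stood apart, and without those 4 the log2 fold change in UUO was -1.20 in place of -0.96 ± 0.19 (adjusted p = 4.62e-04).

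Per kilobase of the principal transcript, Scnn1a made up 64.0% ± 1.93 of the summed ENaC level in sham (SD, n = 3), 49.6% ± 4.81 in UUO (n = 6) and 50.7% ± 5.86 in UUO_Si (n = 6). The share of Scnn1b was 23.3% ± 0.400 in sham and 34.0% ± 2.90 in UUO, and that of Scnn1g was 12.6% ± 1.54 and 16.5% ± 2.82. The count ratio of Scnn1a to Scnn1b, which does not depend on library scaling, went from 3.87 in sham to 2.06 in UUO (geometric means), a log2 difference of -0.91. Here and for the other ratios, an exact permutation test (two-sided) of 3 against 6 libraries cannot give a p below 0.0119, and this ratio reached it (adjusted p = 0.0220 over 24 ratio tests). The ratio of Scnn1g to Scnn1b differed by -0.16 (exact permutation p = 0.298, adjusted p = 0.446), so a change between these 2 subunits was not shown. It was -0.36 without the 4 libraries that stood apart and -0.28 without the UUO and UUO_Si libraries whose sample codes begin with RM6 or RM7, and leaving out 1 library gave -0.24 to -0.093.

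Among the kinases, Wnk4 and Wnk1 parted. Wnk4, a distal nephron WNK kinase (chromosome 11, 101260567 to 101277409), was at 485, 494 and 323 CPM in sham, 67.0 to 127 CPM (median 108) in UUO and 92.2 to 146 CPM (median 111) in UUO_Si. Again sham replicate 3 was lowest, and the log2 fold change of -2.07 ± 0.18 (adjusted p = 5.15e-08) was also -2.07 without the libraries that stood apart. An annotated antisense gene, Gm11615, shares 306 exon bases with Wnk4, and its reads cannot be told apart from those of Wnk4.

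Wnk1, which is expressed in most tissues as a full kinase and in the distal convoluted tubule mainly as a shorter form without kinase activity, was the least variable of the 10 (chromosome 6, 119923969 to 120038672). It was at 1124, 1120 and 1116 CPM in sham, 662 to 742 CPM (median 709) in UUO and 710 to 802 CPM (median 744) in UUO_Si. The fall was -0.66 ± 0.08 (adjusted p = 1.15e-06). Counts per gene do not separate the 2 forms. The count ratio of Wnk4 to Wnk1 was 0.431, 0.442 and 0.290 in sham and 0.101 to 0.181 in UUO, without overlap, a log2 difference of -1.41 (exact permutation p = 0.0119, adjusted p = 0.0220).

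Stk39 encodes SPAK, the kinase between the WNKs and the carriers (chromosome 2, 68210445 to 68472268). It was at 99.3, 108 and 88.5 CPM in sham, 71.4 to 85.9 CPM (median 78.9) in UUO and 80.8 to 89.9 CPM (median 87.9) in UUO_Si. Its fall in UUO was the smallest of the 10, at -0.32 ± 0.08 (adjusted p = 3.87e-03), and without sham replicate 2 it was -0.24 and was not called (adjusted p = 0.0586). Its sister kinase Oxsr1 (OSR1) was at 70.4 ± 6.27 CPM in sham and 73.0 ± 0.761 CPM in UUO, a log2 fold change of 0.05 ± 0.09 (adjusted p = 0.637). The ratio of Stk39 to Oxsr1 fell by 0.37 on the log2 scale (exact permutation p = 0.0119, adjusted p = 0.0220).

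Klhl3, the adaptor that brings WNK kinases to the ligase (chromosome 13, 58000228 to 58113592), was at 114, 110 and 94.5 CPM in sham. It was at 10.5 to 18.4 CPM (median 13.4) in UUO and 12.7 to 18.3 CPM (median 14.5) in UUO_Si. The obstructed libraries lay in a narrow band far below sham, and the fall of -2.91 ± 0.15 (adjusted p = 1.59e-10) left 13.3% of the sham level. It had the smallest p of the 10 and ranked 60 among all tested genes. Cul3, the scaffold of the same ligase, was at 141 ± 7.99 CPM in sham and 154 ± 7.52 CPM in UUO (0.13 ± 0.08, adjusted p = 0.199). The ratio of Klhl3 to Cul3 went from 0.753 to 0.0907, a log2 difference of -3.05 (exact permutation p = 0.0119, adjusted p = 0.0220).

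**Figure D2:**
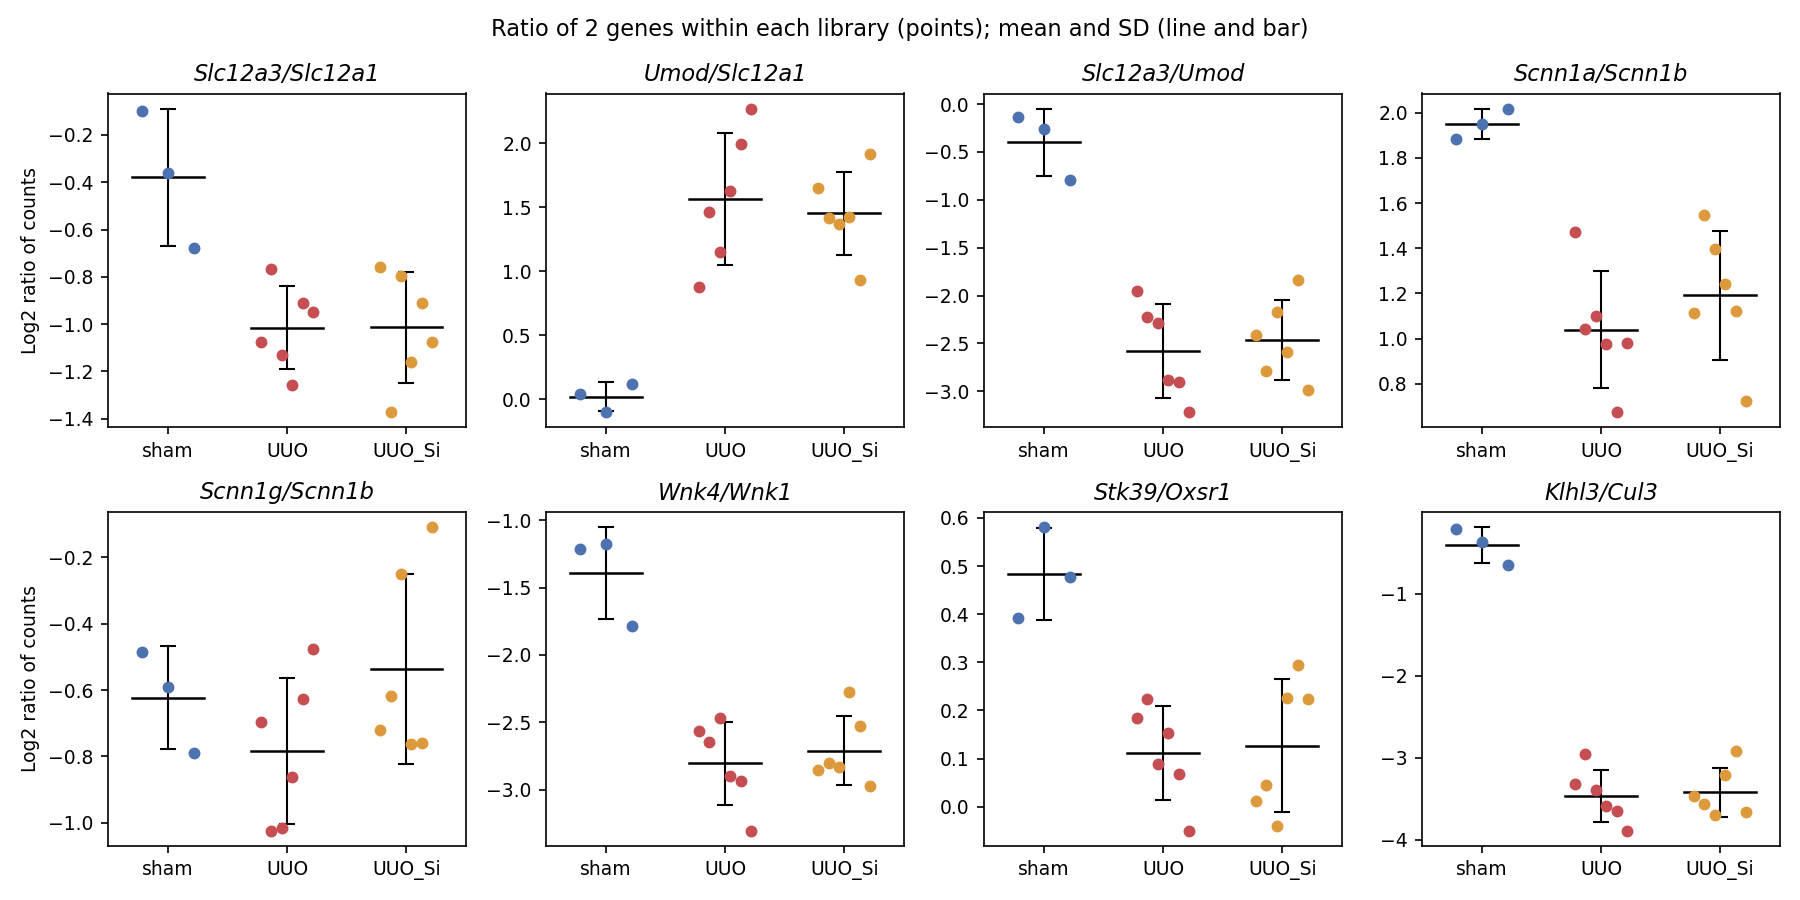
Log2 ratio of the counts of 2 genes within each library (points) of sham, UUO and UUO_Si, with the mean (line) and SD (bar). In 7 of the 8 panels all UUO libraries lie to the same side of all sham libraries, and for Scnn1g/Scnn1b the groups overlap.

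The 2 genes of the thick limb also moved apart from each other. The ratio of Umod to Slc12a1 was 1.03, 0.932 and 1.09 in the sham libraries and 1.83 to 4.82 in UUO, a log2 difference of 1.54 (exact permutation p = 0.0119, adjusted p = 0.0220). Within UUO the libraries ran in largely opposite orders for the 2 genes. Replicate 1 had the most Slc12a1 (442 CPM) and the least Umod (809 CPM), while replicates 5 and 6 had the least Slc12a1 (270 and 219 CPM) and the most Umod (1072 and 1054 CPM). Replicates 5 and 6 were among the libraries that stood apart, and with replicate 4 they had fibroblast markers summing to 9786 to 10941 CPM, against 5758 to 6168 CPM in replicates 1 to 3. In UUO_Si, where fibroblast markers summed to 4927 to 6858 CPM, replicate 1 had the most of both genes (517 CPM of Slc12a1 and 1626 CPM of Umod), and replicates 3 and 5 had the least Slc12a1 (315 and 369 CPM) and the least Umod (813 and 704 CPM). In UUO most of the fibroblast sum was collagen RNA, with means of 2210 CPM for Col1a1, 1835 CPM for Col1a2 and 2788 CPM for Col3a1. The sums need not follow the number of fibroblasts, and their part in these orders was not tested.

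**Figure D3:**
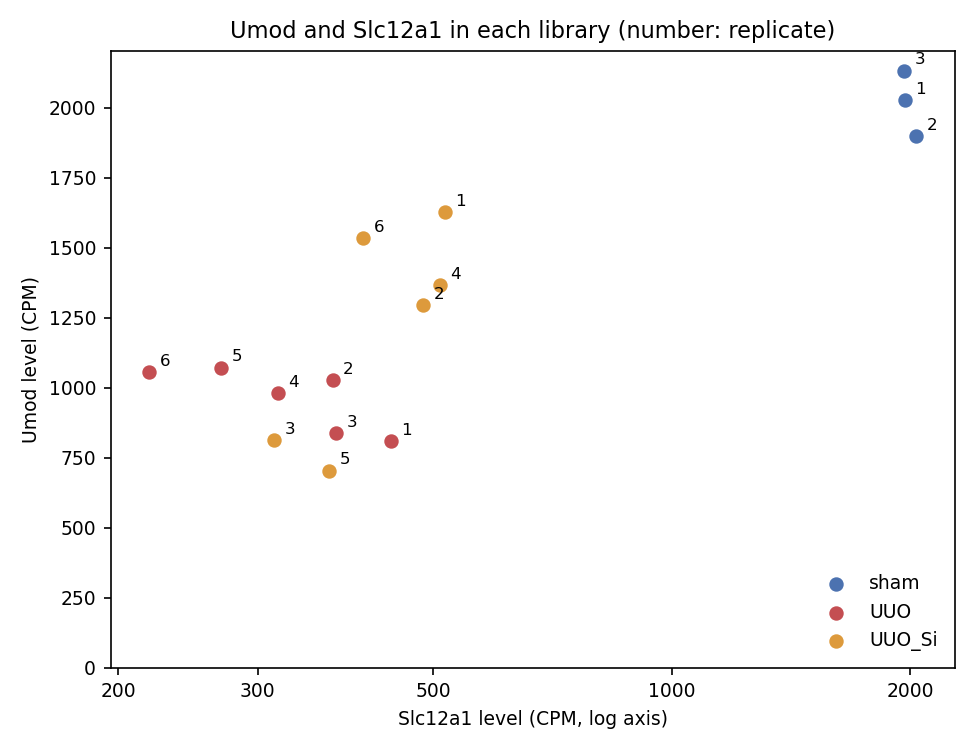
Umod level (CPM) against Slc12a1 level (CPM, log axis) in each library, coloured by group and numbered by replicate. The sham libraries lie at 1964 CPM or more of Slc12a1, and the UUO libraries run from 442 CPM of Slc12a1 with 809 CPM of Umod to 219 CPM with 1054 CPM.

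Slc12a3 fell further than both thick limb genes. Its count ratio to Slc12a1 went from 0.769 to 0.495 (log2 difference -0.64) and its ratio to Umod from 0.759 to 0.168 (-2.18), each with exact permutation p = 0.0119 and adjusted p = 0.0220. Compared per kilobase of principal transcript, the level of Slc12a3 in sham, 470.2 ± 93.3 CPM per kilobase, did not differ beyond its spread from that of Slc12a1 at 429 ± 8.61. In UUO it was 50.1 ± 12.96 CPM per kilobase, with Slc12a1 at 71.8 ± 17.4 and Wnk1 at 67.0 ± 2.75. The ranges of the carriers overlapped between UUO libraries, but within each UUO library Slc12a1 lay above Slc12a3.

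Umod had the highest level per kilobase in every group, at 769 ± 44.5 in sham, 367 ± 43.1 in UUO and 466 ± 145 in UUO_Si. After the carriers in sham came Wnk1 (106 ± 0.383), Wnk4 (105 ± 23.4), Scnn1a (79.5 ± 6.26), Scnn1b (29.0 ± 2.61), Stk39 (27.9 ± 2.75), Scnn1g (15.7 ± 2.69) and Klhl3 (14.8 ± 1.43), all in CPM per kilobase. The neighbours Wnk1 and Wnk4, Scnn1b and Stk39, and Scnn1g and Klhl3 did not differ beyond their spread, though Scnn1b lay above Stk39 within each sham library. In UUO the order below the carriers was Wnk4 (25.2 ± 5.48), Scnn1a (24.4 ± 3.10), Stk39 (22.4 ± 1.51), Scnn1b (16.8 ± 2.34), Scnn1g (8.07 ± 1.16) and Klhl3 (1.98 ± 0.404), with Wnk4, Scnn1a and Stk39 within their spread. These places depend on the transcript length used. With all exons of a gene joined, Slc12a3 ranked 3 in sham and 8 in UUO, because its joined exons span 11119 bases against 3299 in the principal transcript.

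Other genes of the pathway were counted from lists drawn from general knowledge. Of 10 further WNK and SPAK partners, 1 fell and none rose in UUO, and the median log2 fold change was 0.01. The gene that fell was Ppp1r1a, which encodes an inhibitor of protein phosphatase 1 found in the distal convoluted tubule, with a log2 fold change of -2.96 ± 0.23 (adjusted p = 1.61e-08). The next by p, which did not pass, were the phosphatase gene Ppp1ca (0.49), the kinase gene Wnk2 (-0.43) and Klhl2 (-0.17), a close relative of Klhl3. Of the 6 other chloride-coupled carriers 3 fell and 2 rose. The potassium and chloride carrier Slc12a7 (-0.78 ± 0.10) fell, and the widely expressed NKCC1 gene Slc12a2 (0.65 ± 0.10) and Slc12a4 (0.80 ± 0.12) rose.

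Aldosterone acts through the mineralocorticoid receptor to raise ENaC. Of 16 genes of this axis 9 fell and 3 rose (median -0.62). Those that fell with the smallest p were Usp2 (-2.26 ± 0.14), a deubiquitinase induced by aldosterone, Sgk1 (-1.90 ± 0.14), the kinase that restrains ENaC removal, Prss8 (-1.88 ± 0.16), a protease that activates ENaC, and Nedd4l (-1.26 ± 0.15), the ligase that removes ENaC from the membrane. Nr3c1, the glucocorticoid receptor, rose (0.81 ± 0.10), as did Cnksr3 (0.83 ± 0.11), a scaffold protein gene induced by aldosterone. The list thus held both activators and a brake of ENaC among the genes that fell. Of 9 sodium pump genes 4 fell and 5 rose. The beta subunit gene Atp1b1 (-1.77 ± 0.16) and Fxyd2 (-2.04 ± 0.22), which encodes a small regulator of the pump in kidney, fell, while Fxyd5 (2.65 ± 0.16), another small regulator, rose.

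Markers of the segments that hold the 10 genes also fell in most cases. Of 11 thick limb markers tested 8 fell and 2 rose (median -1.21). Egf, made in the thick limb and distal convoluted tubule, changed by -5.997 ± 0.27 on the log2 scale, further than any of the 10 genes. The potassium channel gene Kcnj1 (-1.38 ± 0.11) fell, and Mal (1.04 ± 0.13) and the claudin gene Cldn19 (0.64 ± 0.19) rose. Of 12 distal convoluted and connecting tubule markers 10 fell and 2 rose (median -1.44). The calcium-binding protein genes Calb1 (-4.36 ± 0.32) and S100g (-3.29 ± 0.27) were among those that fell, as were Kcnj16 (-1.64 ± 0.12) and Slc8a1 (-1.23 ± 0.12). The calcium channel gene Trpv5 (0.84) and the calcium pump gene Atp2b1 (0.57) rose.

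Of 9 principal cell markers 5 fell and none rose (median -1.67), with the water channel genes Aqp2 (-3.25 ± 0.35), Aqp3 (-2.12 ± 0.20) and Aqp4 (-3.47 ± 0.38) lower. Mean levels in sham and UUO lay closer for Gata2 (43.5 and 43.3 CPM), Gata3 (35.9 and 44.0 CPM) and Tfcp2l1 (608 and 542 CPM). The summed level of the thick limb list went from 4292 to 4955 CPM in sham to 728 to 851 CPM in UUO. Most of that sum in sham was Egf, with means of 3557 CPM in sham and 55.7 CPM in UUO, so its fall mainly follows 1 gene. The distal convoluted tubule list went from 2157 to 2391 CPM in sham to 847 to 927 CPM in UUO. For principal cells the sum went from 1045 to 1254 CPM to 622 to 761 CPM, with Tfcp2l1 its largest part in both groups. Of 8 intercalated cell markers 6 fell (median -1.48). Of 8 urothelial markers, from cells of the renal pelvis, 7 rose, and their sum went from 12.3 to 25.6 CPM in sham to 48.8 to 238 CPM in UUO. The part of each cell type's share in the falls of the 10 genes was not tested.

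**Figure D4:**
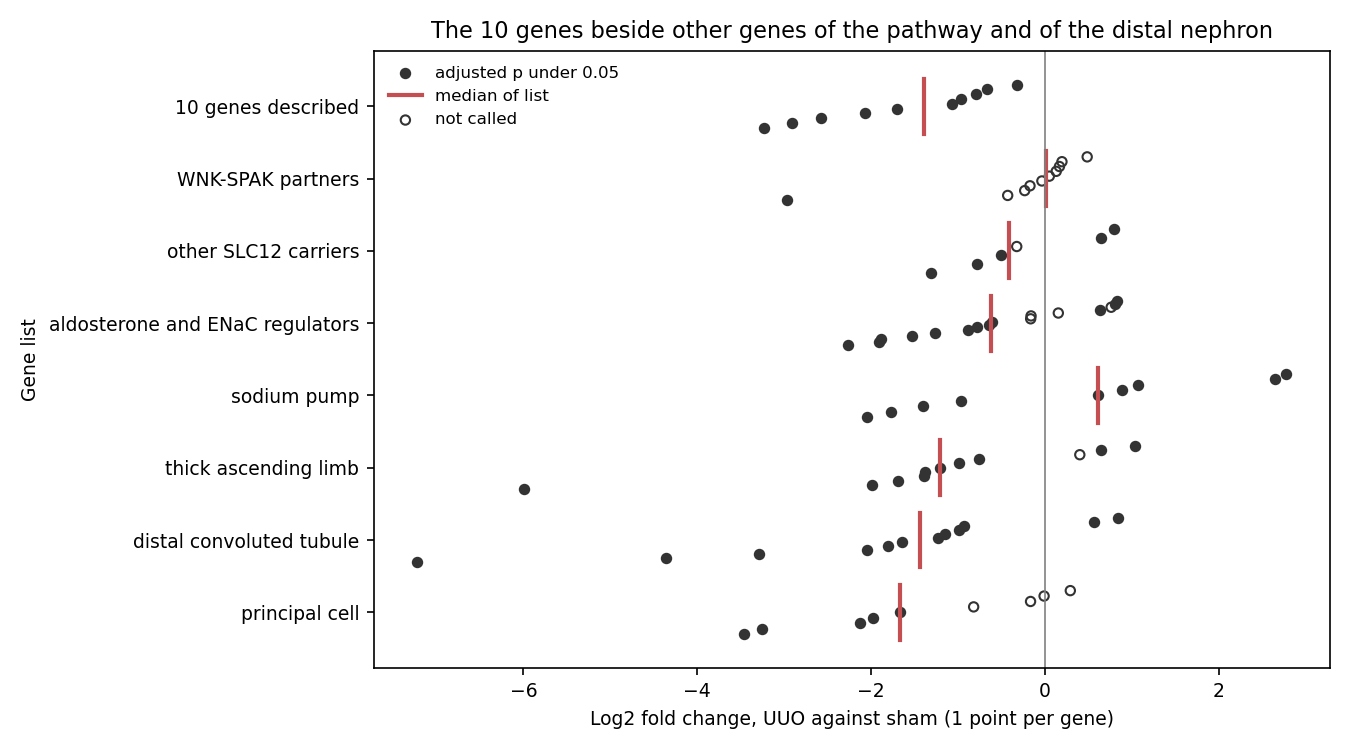
Log2 fold change of each gene in UUO against sham (points, filled where the adjusted p was under 0.05 in edgeR) by gene list, with a line at the median of each list. The 10 genes described all lie below 0, while 9 of the 10 other WNK and SPAK partners are open points near 0. The leftmost point is Pvalb, at 0 counts in 10 of the 15 libraries, whose fitted value is not a measured fold.

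Genes whose pattern over the 15 libraries lay closest to a member were found by the root mean square difference in log2 CPM, with each gene centred on its own mean, among 12906 other genes with a mean of at least 5 CPM. The 3 closest to Slc12a3 were Pcyt2 (0.22), Klhl3 (0.24) and Cpt1b (0.27). The closest to Klhl3 were Pcyt2 (0.17), Slc9a8 (0.22) and Slc12a3 (0.24), so these 2 members were near each other as well. Slc12a1 lay closest to Mfsd7c (0.24), Atp6v0a4 (0.27), a subunit of the kidney proton pump, and Cyp4b1 (0.27). Umod lay closest to the chaperone gene Hsph1 (0.19), Defb1 (0.21), which encodes a tubular defensin, and Mrps6 (0.23). Wnk4 lay closest to Plekha7 (0.15), Rap1gap (0.15) and Tchh (0.16), and Scnn1b to Ascc1 (0.15), Mavs (0.16) and Tom1 (0.16). The difference between sham and the obstructed groups makes up most of each profile, so these values mostly describe falls of like size.

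The obstructed groups were compared to ask what the Si-based diet changed in these genes. None of the 10 passed, and in edgeR 0% of tested genes were called, with DESeq2 calling 2 and limma-voom 0. All 10 log2 fold changes were above 0, with a median of 0.20 against 0.00 over all tested genes. Without the 4 libraries that stood apart the median was 0.13 and Klhl3 was at -0.02. An unadjusted p under 0.05 was reached by 4 of the 10 and by 3.74% of tested genes. The 10 genes were measured in the same libraries and are not independent. The 4 became 0 without UUO_Si replicate 1, and 2 without UUO replicate 3 or UUO_Si replicate 2. The number was 1 without UUO replicate 5, UUO replicate 6, UUO_Si replicate 4, the 4 libraries that stood apart or codes RM6 and RM7. It was 5 without UUO_Si replicate 3, without UUO_Si replicate 5 and with limma-voom, and 3 or 4 in every other setting. The groups overlapped for each of the 10 genes, as for all but 0.203% of tested genes.

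The carriers, Umod and Scnn1g had values of 0.34 to 0.38. Mean Slc12a1 was 333 ± 80.9 CPM on normal feed and 434 ± 82.9 CPM on the Si-based diet (SD, n = 6 each), a log2 fold change of 0.38 with a 95% interval of 0.05 to 0.71 before adjustment (adjusted p = 0.999). It was 0.21 without the 4 libraries that stood apart. In the same order Slc12a3 was at 165 ± 42.8 and 215 ± 47.0 CPM (0.38, 0.02 to 0.74), and at 0.26 without those libraries, where Umod was at 0.34 and Scnn1g at 0.30. Umod was at 964 ± 113 and 1224 ± 380.3 CPM (0.34, -0.02 to 0.71). For Umod the UUO_Si libraries lay on both sides of the UUO range, with replicates 1, 2, 4 and 6 above it and replicate 5 below it.

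For the channel, Scnn1a was at 0.24 (0.02 to 0.46), Scnn1b at 0.10 (-0.17 to 0.37) and Scnn1g at 0.37 (0.03 to 0.71). Scnn1g was at 0.19 without UUO_Si replicate 6. Of the regulators, Wnk4 was at 0.16 (-0.17 to 0.49), Stk39 at 0.12 (-0.02 to 0.27), Klhl3 at 0.08 (-0.20 to 0.36) and Wnk1 at 0.08 (-0.05 to 0.21). Without the 4 libraries that stood apart Scnn1b was at 0.029 and Wnk4 at 0.049. The adjusted p of each of the 10 was 0.999. Between the same groups the fibroblast list had a median of -0.55, with 10 of 10 genes below 0, and the urothelial list -0.72, with 8 of 8 below 0. Values above 0 were shared by 11 of 11 thick limb markers (median 0.23), 10 of 12 distal convoluted tubule markers (0.19) and 9 of 9 principal cell markers (0.29). Of the 10 further WNK and SPAK partners 5 lay above 0, as did 5 of the 10 proximal tubule markers. No gene of any list was called, and the part of these values in those of the 10 genes was not tested. The intervals leave room for differences of up to 0.71 and 0.74 on the log2 scale in the 2 carriers and do not show that the diets gave equal levels. A difference between the diets was not shown for any of the 8 ratios (exact permutation p = 0.128 to 0.974, adjusted p = 0.204 to 0.974). The largest was 0.25 on the log2 scale, for Scnn1g to Scnn1b. Slc12a3 to Slc12a1 was at 0.496 in UUO_Si and 0.495 in UUO.

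**Figure D5:**
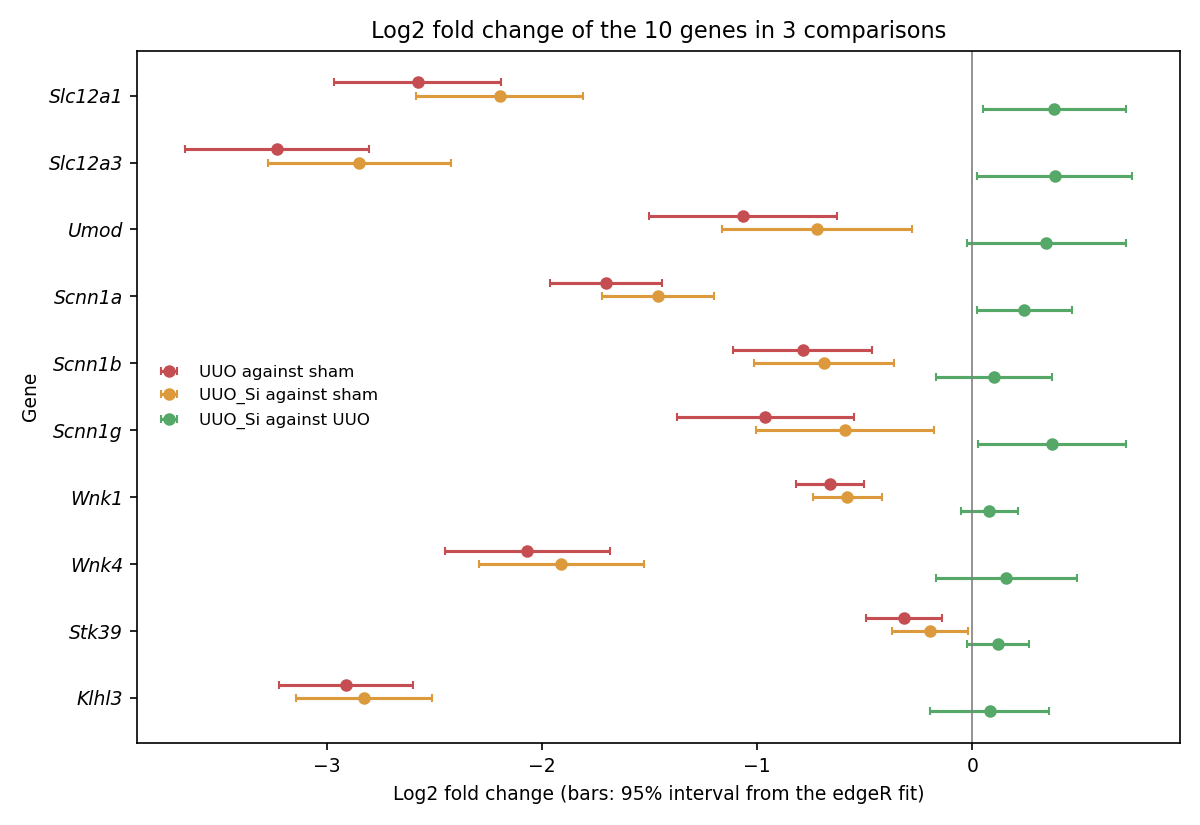
Log2 fold change of each of the 10 genes (points) with its 95% interval from the edgeR fit (bars) in UUO against sham, UUO_Si against sham and UUO_Si against UUO. The values against sham run from -3.23 to -0.20, and those between the diets lie between 0.08 and 0.38.

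Against sham, UUO_Si kidneys differed in the operation and in the diet, and this comparison shares its sham libraries with that of UUO and its UUO_Si libraries with that of the diets. Of the 10 genes 9 fell, where 25.5% of tested genes were called lower and 52.7% in either direction, and the median was -1.09. The UUO_Si libraries lay below all sham libraries for 8 of the 10, as for 21.8% of tested genes (45.7% in either direction), the exceptions being Scnn1g and Stk39. Log2 fold changes were -2.85 ± 0.20 for Slc12a3, -2.83 ± 0.15 for Klhl3, -2.20 ± 0.18 for Slc12a1, -1.91 ± 0.18 for Wnk4, -1.46 ± 0.12 for Scnn1a and -0.72 ± 0.21 for Umod. They were -0.69 ± 0.15 for Scnn1b and -0.58 ± 0.08 for Wnk1. Scnn1g fell by 0.59 ± 0.20 on the log2 scale (adjusted p = 0.0176). It was not called without sham replicate 1 (-0.51, adjusted p = 0.0854) or sham replicate 2 (-0.50, adjusted p = 0.0882). Without the 4 libraries that stood apart Scnn1g was at -0.90 and was called (adjusted p = 2.68e-05). The change of Stk39, -0.20 ± 0.08, missed the threshold (adjusted p = 0.0581). Without sham replicate 3 it was at -0.27 and passed (adjusted p = 0.021), and without UUO replicate 1 it was at -0.22 (adjusted p = 0.0458). Without sham replicate 2 it was at -0.11 (adjusted p = 0.356).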

How the data were processed

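Kidney total RNA was sequenced after a SMARTer Stranded Total RNA-Seq Pico library preparation, per the labels' protocols. The deposited values were taken to be expected counts, since library totals differed and 79.0% to 83.0% of a library's deposited counts were whole. They were rounded. The submitters' processing notes name TopHat2 2.1.1, Cuffdiff 2.2.1 and mm10, with no role; counter, annotation and strand setting are not given in the sources used here. All 15 columns were used. Symbols were matched to GENCODE M21 on GRCm38 (95.7% matched) for positions and lengths; the level per kilobase uses the longest principal transcript.

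Genes kept by edgeR's filter (minimum count 10) were scaled with TMM and fitted with 1 mean per group over all libraries in edgeR 4.0.16 (R 4.3.3; quasi-likelihood, robust), with Benjamini-Hochberg adjustment over 16752 genes and a threshold of 0.05. Log2 fold changes carry a standard error worked back from the F statistic. Ratios used rounded counts plus 1 and exact permutation tests, adjusted over 24 tests. Alternatives included DESeq2 1.42.0 and limma 3.58.1 (voom). Steps were tested on simulated data. Within a group, the nearest pair of libraries differed by 3.95 times the sampling variance per gene, so none was taken for a copy of another in its group. The members and lists were chosen with earlier results of these data known. All 10 members are named, and of other lists up to 5 genes with the smallest p, up to 2 against their list's direction and up to 2 with the smallest p between diets. Oxsr1 and Cul3 enter through the ratios. Pvalb, Tsc22d3, Per1, Nr3c2, Gata2, Gata3, Tfcp2l1, Col1a1, Col1a2 and Col3a1 were named after their values were seen. Some genes that this rule would name are not reported here. Sample codes that begin with the same digit, RM6 and RM7 among them, all belong to 1 group. What the codes mark is not given in the sources used here and cannot be told apart from the groups. Leaving out RM6 and RM7 does not change this.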

Additional observations from a re-analysis of the deposited data

Results flagged for a closer look

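Slc12a3 in UUO_Si replicate 1, at 305.4 CPM, lay far from the other 5 libraries of its group, the nearest of which was at 228 CPM. The gap was 0.625 of the group's range, just above the 95% critical value of Dixon's test for 6 values, which is 0.625. It was the only such value among 20 groups of 6 libraries checked (10 genes in UUO and UUO_Si), and chance flags about 1 in 20. The same library had the highest Slc12a1, Umod, Scnn1a, Scnn1b and Wnk1 of the UUO_Si group.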

How the results depend on the processing

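The calls and fold changes of the 10 genes were recomputed with other scaling (RLE, upper-quartile), other filters, without rRNA and haemoglobin genes, with DESeq2 and limma-voom, with only the compared groups, with each library left out, without the libraries that stood apart and without codes RM6 and RM7. The ratios were recomputed with another pseudocount and with libraries left out, and the places by level per kilobase with joined exons only, an alternative chosen after seeing the data. The other lists, the ENaC shares, the closest genes and the values of Sgk1 and Usp2 were not recomputed. All 10 genes kept their direction against sham in all of these. With 1 library left out, 9 to 10 of the 10 were called in UUO against sham, 8 to 10 in UUO_Si against sham and 0 in UUO_Si against UUO. Between the diets DESeq2 called 2 genes in all, Phlda1 and Sfrp4, where edgeR called 0. Klhl3 changed sign between the diets, to -0.0203, without the 4 libraries that stood apart and without codes RM6 and RM7. Between the diets these settings leave out the same libraries, UUO replicates 5 and 6 and UUO_Si replicate 6, so they are not separate checks. Stk39 in UUO_Si against sham was also called with RLE scaling (adjusted p = 0.0492), a stricter filter (0.0151), DESeq2 (0.0267), limma-voom (0.00995) and without the 4 libraries that stood apart (0.0235); in 19 of 26 alternatives it was not called, with adjusted p over all 26 from 0.00995 to 0.356. With the replicate block, 10, 9 and 0 of the 10 were called in UUO against sham, UUO_Si against sham and UUO_Si against UUO, and 8433, 8268 and 0 of all genes. Libraries with the same number in UUO and UUO_Si correlated at -0.39 to 0.75, and not every pair was over 0.1, so the numbers were not taken to pair the samples. The highest value was that of replicate 6, whose libraries both stood apart.

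Calls of ratios against sham were lost whenever a sham library, the 4 libraries that stood apart or codes RM6 and RM7 were left out, since fewer samples raise the smallest possible p, and some also without a UUO_Si library; the values are log2 differences. For UUO against sham, the lowest and highest values with 1 library left out were -0.79 and -0.50 for Slc12a3/Slc12a1, 1.40 and 1.68 for Umod/Slc12a1, -2.38 and -2.05 for Slc12a3/Umod, -0.997 and -0.84 for Scnn1a/Scnn1b, -1.61 and -1.30 for Wnk4/Wnk1, -0.42 and -0.32 for Stk39/Oxsr1, -3.17 and -2.95 for Klhl3/Cul3. Without the 4 libraries that stood apart and without codes RM6 and RM7, in that order, they were -0.83 and -0.68 for Slc12a3/Slc12a1, 1.31 and 1.26 for Umod/Slc12a1, -2.14 and -1.94 for Slc12a3/Umod, -0.77 and -0.80 for Scnn1a/Scnn1b, -1.45 and -1.25 for Wnk4/Wnk1, -0.32 and -0.32 for Stk39/Oxsr1, -3.02 and -2.90 for Klhl3/Cul3. For UUO_Si against sham, the lowest and highest values with 1 library left out were -0.78 and -0.49 for Slc12a3/Slc12a1, 1.34 and 1.54 for Umod/Slc12a1, -2.26 and -1.94 for Slc12a3/Umod, -0.83 and -0.67 for Scnn1a/Scnn1b, -1.51 and -1.21 for Wnk4/Wnk1, -0.40 and -0.31 for Stk39/Oxsr1, -3.13 and -2.91 for Klhl3/Cul3. Without the 4 libraries that stood apart and without codes RM6 and RM7, in that order, they were -0.77 and -0.62 for Slc12a3/Slc12a1, 1.39 and 1.34 for Umod/Slc12a1, -2.16 and -1.96 for Slc12a3/Umod, -0.63 and -0.67 for Scnn1a/Scnn1b, -1.46 and -1.26 for Wnk4/Wnk1, -0.38 and -0.38 for Stk39/Oxsr1, -3.08 and -2.96 for Klhl3/Cul3. For UUO_Si against UUO, the lowest and highest values with 1 library left out were -0.048 and 0.074 for Slc12a3/Slc12a1, -0.25 and 0.031 for Umod/Slc12a1, -0.0149 and 0.24 for Slc12a3/Umod, -0.0049 and 0.16 for Wnk4/Wnk1, -0.0186 and 0.048 for Stk39/Oxsr1, -0.057 and 0.14 for Klhl3/Cul3. Leaving out the 4 libraries that stood apart or codes RM6 and RM7 removes the same UUO and UUO_Si libraries, so both settings gave the same values. These were 0.058 for Slc12a3/Slc12a1, 0.081 for Umod/Slc12a1, -0.023 for Slc12a3/Umod, -0.011 for Wnk4/Wnk1, -0.056 for Stk39/Oxsr1 and -0.063 for Klhl3/Cul3. Scnn1g/Scnn1b in UUO_Si against sham was -0.0834 without the 4 libraries that stood apart. Ratios between the diets that changed sign lay near 0 and none was called. The lowest count of a member in any library was 112, for Klhl3 in UUO_Si.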

Other observations

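Among the aldosterone and ENaC regulators, Usp2 and Sgk1 had the smallest p between the diets, although neither passed in edgeR (adjusted p = 0.999 each). Sgk1 went from 41.8 ± 7.57 CPM on normal feed to 58.5 ± 7.06 CPM on the Si-based diet (SD, n = 6 each), a log2 fold change of 0.49 ± 0.12, with sham at 156 ± 18.0 CPM (n = 3). Usp2 went from 32.6 ± 3.09 to 46.2 ± 10.3 CPM, with sham at 156 ± 17.5 CPM (0.51 ± 0.12 between the diets). For both genes all UUO_Si libraries lay above all UUO libraries, which was the case in this direction for 18 of 16752 tested genes (0.107%). The lowest UUO_Si and the highest UUO library were 51.0 and 49.5 CPM for Sgk1 and 36.4 and 36.2 CPM for Usp2. Another pair of genes was picked after their values were seen. Tsc22d3 (GILZ) was at 81.8 ± 12.4 CPM in sham, 73.3 ± 14.1 in UUO and 104 ± 21.7 in UUO_Si, and Per1 at 290 ± 80.4, 100.5 ± 37.2 and 141 ± 33.5 CPM in the same order. Between the diets Tsc22d3 was at 0.50 ± 0.14 and Per1 at 0.49 ± 0.22. For both genes the groups overlapped, and neither passed in edgeR (adjusted p = 0.999 each). Sgk1, Usp2, Tsc22d3 and Per1 are known as targets of corticosteroid hormones. So is Cnksr3, which was at 0.06 ± 0.08 between the diets, and the median of the 16 genes of this axis was 0.08. Whether these hormones had a part was not tested. The receptor genes Nr3c2 and Nr3c1 had log2 fold changes of 0.08 ± 0.15 and -0.08 ± 0.08 between the diets.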
